A study of Homo sapiens with 16 samples.

Results

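The genes described here were 7 matrix metalloproteinases (MMP1, MMP7, MMP10, MMP13, MMP14, MMP15 and MMP24) and 3 tissue inhibitors of metalloproteinases (TIMP1, TIMP2 and TIMP3). They were taken by their symbols, with earlier results of these data known, and are 10 of the 61228 genes counted in every table. RNA came from Caco-2, a line from a human colon carcinoma whose cells polarise into an enterocyte-like layer, grown on a magnetically actuated chip that carries intestinal villi. The induced group, table IBD, is labelled as an induction of inflammatory bowel disease. The sources used here give neither its agent nor its dose or duration, and no label says which swing its chips received, although the series design names the group IBD-VOS. Tables VOS2 and VOS1 hold the chips with a physiological or a pathological swing, and no label ties either code to one of them. Table NOS1 was taken as the static control by elimination. Each table held 4 libraries. All groups share the same cell line, and no label says whether the 4 replicates were separate cultures, so the p-values measure only the spread between these samples, which may be technical.

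Library totals were 16307998 to 20609117 counts in IBD, 15078620 to 18865457 in VOS2, 17537880 to 20021726 in NOS1 and 21868713 to 28148186 in VOS1. Levels are given as CPM, the counts scaled to the same library total, computed from the authors' raw counts, and IBD, VOS2 and NOS1 were compared with each other. VOS1 was counted over shorter gene features and is described apart. All 10 epithelial markers (VIL1, CDH1, EPCAM, KRT8, KRT18, KRT20, CDX2, CDH17, LGALS4 and HNF4A) were at 1 CPM or more in every table, with a summed level of 9428 to 9542 CPM in IBD, 10583 to 12215 CPM in VOS2 and 9197 to 12176 CPM in NOS1.

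Matrix metalloproteinases are zinc-dependent endopeptidases made as inactive proenzymes. Secreted members cut collagens, proteoglycans and other proteins of the matrix and of the cell surface, and membrane-type members act at the plasma membrane. TIMPs bind the active site of the enzymes and block it, and TIMP2 also takes part, with MMP14, in the activation of proMMP2 at the cell surface. In the gut, MMP7 (matrilysin) is an epithelial product that in mouse Paneth cells activates defensins, while MMP1, MMP3 and several others are made largely by stromal cells and rise in inflamed tissue.

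The members did not move together. MMP7 was the one member higher in IBD libraries, by 14.4-fold against VOS2 and by 9.03-fold against NOS1. TIMP2 was lower in IBD than in NOS1, by 1.56-fold. MMP14 and MMP15, the membrane-type enzymes with counts, had table means of 87.9 to 104.8 CPM and did not pass in any comparison. The remaining members had either few counts (MMP13) or a count of 0 in every IBD, VOS2 and NOS1 library (MMP1, MMP10, MMP24, TIMP1 and TIMP3).

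The promoters of 7 of the 10 members were matched in RefSeq (GRCh38.p14), and those of MMP1, MMP13 and TIMP2 were not searched. Those of MMP7, the member that rose, of MMP10, a member of the same chromosome 11 gene cluster, and of MMP14, the abundant member that did not pass the test, are printed so that their letters can be compared. Each runs from 250 bases before the start to 50 bases from it, 5′ to 3′ on the gene's strand, at chr11:102530698-102530997 (minus strand) for MMP7, chr11:102780579-102780878 (minus strand) for MMP10 and chr14:22836335-22836634 (plus strand) for MMP14. Capitals mark a match to TGANTCA, the core of the AP-1 motif, searched on both strands.
MMP7: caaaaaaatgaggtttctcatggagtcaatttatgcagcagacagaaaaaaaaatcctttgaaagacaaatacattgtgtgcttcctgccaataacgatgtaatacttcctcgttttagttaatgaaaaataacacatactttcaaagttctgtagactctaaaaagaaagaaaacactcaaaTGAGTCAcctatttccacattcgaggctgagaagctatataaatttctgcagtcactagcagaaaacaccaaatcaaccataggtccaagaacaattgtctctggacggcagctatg
MMP10: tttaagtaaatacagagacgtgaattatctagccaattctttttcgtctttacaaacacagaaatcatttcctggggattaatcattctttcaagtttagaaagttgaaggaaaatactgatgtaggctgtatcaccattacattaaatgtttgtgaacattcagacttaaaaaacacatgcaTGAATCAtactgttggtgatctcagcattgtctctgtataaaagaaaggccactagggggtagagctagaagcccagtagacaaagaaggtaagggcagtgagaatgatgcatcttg
MMP14: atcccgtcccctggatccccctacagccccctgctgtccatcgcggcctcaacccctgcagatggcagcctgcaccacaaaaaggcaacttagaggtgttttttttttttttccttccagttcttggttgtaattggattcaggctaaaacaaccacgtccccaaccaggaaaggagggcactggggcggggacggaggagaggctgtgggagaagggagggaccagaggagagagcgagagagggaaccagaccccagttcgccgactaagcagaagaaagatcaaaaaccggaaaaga

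The AP-1 match lay at −67 to −61 from the start in both MMP7 (TGAGTCA) and MMP10 (TGAATCA), and none was found in the MMP14, MMP15, MMP24, TIMP1 or TIMP3 windows. AP-1 matches were present in 7.76% of the 27305 RefSeq promoters of the same length. A TATAAA match lay at −30 to −25 in MMP7 and at −31 to −26 in MMP10, against 12% of all promoters, and none of the other 5 promoters searched had one. CAGGAAG, an ETS core searched on both strands, was matched at −169 to −163 in MMP7 and at −88 to −82 in TIMP1, against 12.8% of all promoters. CTTTGAT, a form of the TCF core, was present in 2.64% of all promoters, and GCGTGGGCG, the EGR1 core, in 0.784%. Neither was matched in the 7 promoters searched. The form CTTTGAA was not searched, and its letters occur in the MMP7 window printed above. These are matches of letters in a window of 300 bases, and say nothing of binding.

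Among the secreted enzymes, MMP7 degrades proteoglycans, fibronectin and laminin and sheds several cell surface proteins. The gene spans bases 102520508 to 102530753 of chromosome 11 (GRCh38, GENCODE v29, minus strand) and overlaps no other annotated gene. Its counts were 75, 64, 68 and 86 in the IBD libraries, 1, 6, 6 and 6 in the VOS2 libraries, and 15, 6, 3 and 11 in the NOS1 libraries. All 4 IBD libraries were above all 8 others, while the VOS2 and NOS1 libraries overlapped.

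In CPM, the mean of MMP7 was 4.07 ± 0.81 CPM in IBD libraries, 0.287 ± 0.158 CPM in VOS2 libraries and 0.451 ± 0.258 CPM in NOS1 (SD, n = 4 each). The highest library, IBD replicate 4, had 5.27 CPM. The log2 fold change was 3.85 (SE 0.432, 95% interval 2.93 to 4.77) for IBD against VOS2, with an adjusted p of 0.000165 in edgeR's quasi-likelihood test with Benjamini-Hochberg adjustment. It was 3.18 (SE 0.397, interval 2.33 to 4.02) for IBD against NOS1, with an adjusted p of 0.000454. For VOS2 against NOS1 it was −0.68 (SE 0.502) with an edgeR adjusted p of 0.738. MMP7 passed the filter on low counts through the IBD libraries, since 4 IBD libraries, 0 VOS2 libraries and 1 NOS1 library reached its limit of 0.559 CPM.

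**Figure D1:**
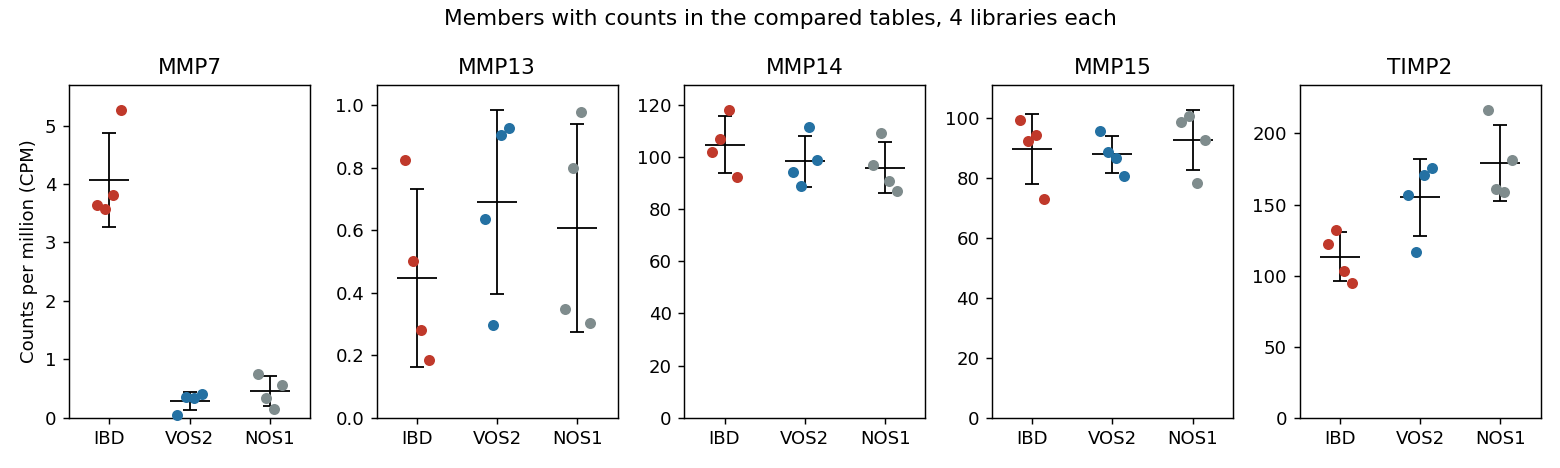
CPM of the 5 members with counts in IBD, VOS2 and NOS1, 1 panel per gene. Points are libraries, the long bar is the mean and the whiskers are 1 SD (n = 4). MMP7 stands apart in IBD, at 3.57 CPM or more against at most 0.749 CPM elsewhere, TIMP2 runs lowest in IBD and highest in NOS1, and the other panels overlap.

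MMP7 is also a product of Paneth cells, so markers of that cell type were set beside it. The summed level of the 6 Paneth markers was 56.5 to 63.6 CPM in IBD, 30.7 to 45.4 CPM in VOS2 and 31.6 to 41.2 CPM in NOS1. IBD did not overlap with VOS2 or NOS1. In VOS1, counted over shorter features, the sum was 156 to 186 CPM, while MMP7 had 1 to 6 counts per library there. The defining defensins DEFA5 and DEFA6 were at 0 counts in every library of every table. Lysozyme (LYZ) rose 3.18-fold in IBD against VOS2 (edgeR adjusted p 3.97e-06) and the antimicrobial lectin REG3A rose 9.99-fold (edgeR adjusted p 0.00714), with a mean of 1.94 CPM in IBD against 0.195 CPM in VOS2. The other 2 markers tested, PLA2G2A and ITLN2, did not pass (edgeR adjusted p 0.558 and 0.964). Against NOS1, LYZ rose 2.65-fold (edgeR adjusted p 3.35e-05) and REG3A did not pass (0.0865). The part of this cell type in the MMP7 result was not tested.

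MMP13 (collagenase-3), which cuts fibrillar collagens, lies nearby in the same cluster, from 102942995 to 102955734. It had 17, 9, 5 and 3 counts in IBD, 12, 5, 16 and 14 in VOS2, and 7, 14, 19 and 6 in NOS1. The libraries of the 3 tables overlapped throughout. The mean was 0.448 ± 0.284 CPM in IBD, 0.692 ± 0.295 CPM in VOS2 and 0.608 ± 0.334 CPM in NOS1 (SD, n = 4 each). At these counts the interval of the log2 fold change, −1.66 to 0.542 for IBD against VOS2, still held changes of over 1 log2 unit downward, and a difference was not detectable at this depth (edgeR adjusted p 0.622). IBD against NOS1 gave −0.38 (interval −1.48 to 0.723, edgeR adjusted p 0.717).

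MMP1 (interstitial collagenase) and MMP10 (stromelysin-2), the other secreted members, had a count of 0 in all 12 libraries of IBD, VOS2 and NOS1. Both lie in the same chromosome 11 cluster as MMP7.

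MMP14 (MT1-MMP), the main membrane-type collagenase and an activator of proMMP2, lies on chromosome 14 from 22836557 to 22849027. It had 102, 107, 118 and 92.2 CPM in the IBD libraries, 94.2, 88.8, 112 and 98.7 CPM in the VOS2 libraries, and 96.8, 109, 90.8 and 87.0 CPM in the NOS1 libraries. The 3 tables overlapped, with IBD replicate 3 highest and NOS1 replicate 4 lowest. The log2 fold change was 0.12 (interval −0.0894 to 0.325) for IBD against VOS2 and 0.15 (interval −0.0573 to 0.357) for IBD against NOS1. Neither passed edgeR's test (adjusted p 0.572 and 0.387), and with at least 1488 counts in every library the intervals leave room for changes of no more than 0.357 log2 units upward.

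MMP15 (MT2-MMP), a second membrane-type enzyme, lies on chromosome 16 from 58025566 to 58046901. It had 99.3, 92.2, 94.5 and 72.9 CPM in the IBD libraries, 95.7, 88.5, 86.6 and 80.7 CPM in the VOS2 libraries, and 98.7, 100.8, 78.3 and 92.8 CPM in the NOS1 libraries. Again the tables overlapped, and IBD replicate 4 was the lowest library of the 12. The log2 fold change was 0.05 (interval −0.155 to 0.265, edgeR adjusted p 0.818) for IBD against VOS2 and −0.02 (interval −0.233 to 0.186, edgeR adjusted p 0.915) for IBD against NOS1. MMP24 (MT5-MMP), known mainly from neural tissue, was at 0 counts in the 12 libraries.

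TIMP2 was the inhibitor with counts in these tables. The gene spans bases 78852977 to 78925387 of chromosome 17 (minus strand), and 14.1% of its exonic bases lie inside the span of other genes, CEP295NL among them, so part of its reads is uncertain. It had 122, 132, 103 and 94.8 CPM in the IBD libraries, 157, 117, 171 and 176 CPM in the VOS2 libraries, and 217, 161, 159 and 181 CPM in the NOS1 libraries. All 4 IBD libraries were below all 4 NOS1 libraries. VOS2 replicate 2 lay inside the IBD range, and the other VOS2 libraries lay above it.

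The TIMP2 mean was 113.2 ± 17.3 CPM in IBD, 155 ± 26.8 CPM in VOS2 and 179.5 ± 26.8 CPM in NOS1 (SD, n = 4 each). For IBD against NOS1 the log2 fold change was −0.64 (SE 0.133, interval −0.923 to −0.358), with an edgeR adjusted p of 0.0137. For IBD against VOS2 it was −0.43 (SE 0.133, interval −0.709 to −0.143), which did not pass at an edgeR adjusted p of 0.0845, and for VOS2 against NOS1 it was −0.21 (SE 0.132, edgeR adjusted p 0.65). Both p-values of IBD sat near the threshold. Without IBD replicate 4 the call against NOS1 was lost (edgeR adjusted p 0.055), as it was without NOS1 replicates 1 and 4 together (0.101) and without IBD replicates 3 and 4 together (0.19). Without IBD replicate 2 or VOS2 replicate 2, TIMP2 passed against VOS2 as well (edgeR adjusted p 0.0392 and 0.0263).

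In tissue, TIMP2 is made largely by stromal cells, so fibroblast markers were set beside it. The summed level of the 8 markers was 27.3 to 52.0 CPM in IBD, 34.6 to 44.0 CPM in VOS2 and 31.0 to 45.7 CPM in NOS1, which overlap. THY1 was at 0 counts in every library, COL1A2 in IBD and VOS2, and DCN in IBD. Of the 4 markers tested, the proteoglycan lumican (LUM) fell 1.78-fold in IBD against NOS1 (edgeR adjusted p 0.0216) and 1.88-fold against VOS2 (edgeR adjusted p 0.0128), and the other 3 did not pass. Mitochondrial genes took 5.62% to 6.72% of the counts in IBD, 6.00% to 6.94% in VOS2 and 4.48% to 5.74% in NOS1. The part of either measure in the TIMP2 result was not tested, and fewer cells with a transcript cannot be told apart from less transcript per cell in bulk RNA.

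**Figure D2:**
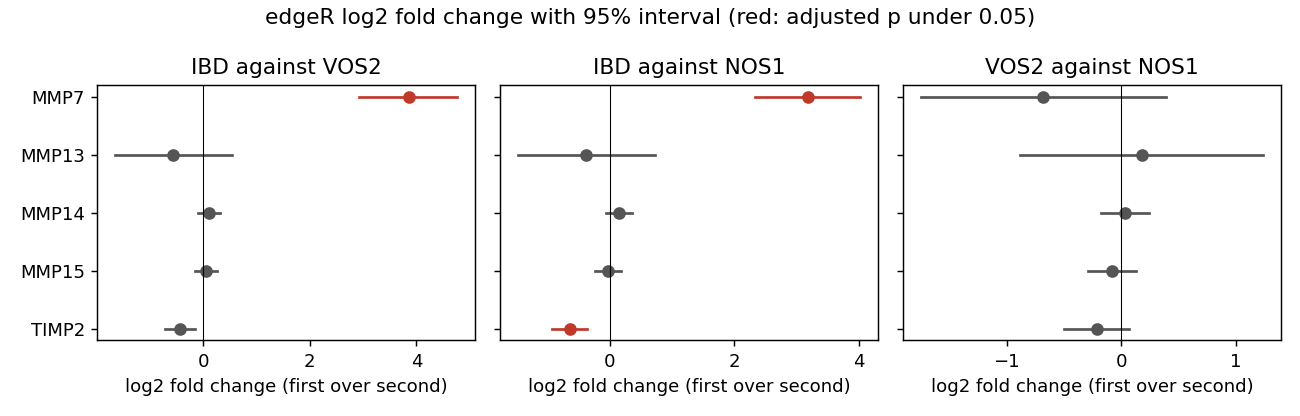
Log2 fold change from edgeR with its 95% interval for the 5 tested members, for IBD against VOS2, IBD against NOS1 and VOS2 against NOS1. Red marks an adjusted p under 0.05, which is MMP7 in both IBD comparisons and TIMP2 in IBD against NOS1, and the interval of MMP13 is the widest in the IBD panels.

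Of the 5 members tested, 1 passed in IBD against VOS2, where 4.56% of the 14773 tested genes did (2.32% higher and 2.24% lower). In IBD against NOS1, 2 of the 5 passed, where 5.81% of the tested genes did (2.8% higher and 3.01% lower). The 2 IBD comparisons share the IBD libraries. In VOS2 against NOS1, 0 of the 5 members and 0% of the tested genes passed in edgeR, in either direction, with 1457 genes at an unadjusted p under 0.05, none of them a member, and DESeq2 called 6 genes and limma 0. The median log2 fold change of the 5 tested members was 0.0548 in IBD against VOS2 and −0.0237 in IBD against NOS1, beside −0.0103 and −0.0158 over all tested genes. The 5 members at 0 were not tested.

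Because TIMP2 binds MMP14 at the cell surface, the ratio of their counts was taken within each library. MMP14 counts divided by TIMP2 counts gave 0.832, 0.807, 1.146 and 0.973 in IBD, 0.601, 0.762, 0.654 and 0.562 in VOS2, and 0.447, 0.677, 0.571 and 0.480 in NOS1. Every IBD library was above every VOS2 and NOS1 library, and VOS2 and NOS1 overlapped. In VOS1, counted over shorter features, the ratio was 0.987, 0.913, 1.246 and 1.028, and it was not compared with the other tables. The mean was 0.940 ± 0.156 in IBD, 0.644 ± 0.0867 in VOS2 and 0.544 ± 0.103 in NOS1 (SD, n = 4 each). This ratio was formed after the values were seen and carries no test. It is a ratio of counts over features of different length and not of molecules.

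**Figure D3:**
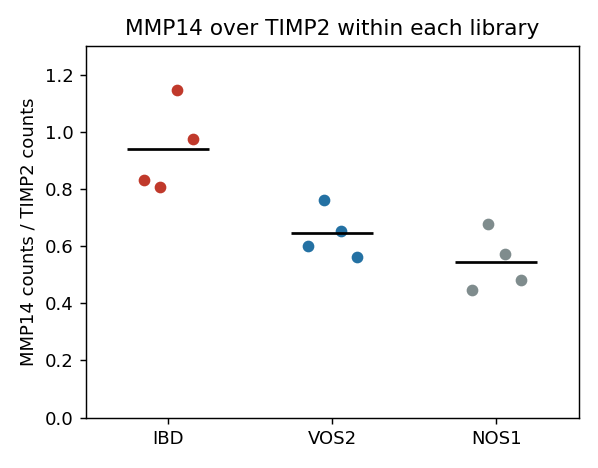
MMP14 counts divided by TIMP2 counts in each library of IBD, VOS2 and NOS1. Points are libraries and bars are means. The 4 IBD libraries run from 0.807 to 1.146 and lie above the 8 others, which reach 0.762.

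The 5 members with no counts were not weakly counted but at exactly 0 in each of 12 libraries, while all 5 had counts in every VOS1 library. A count of 0 allows up to 3 counts, or 0.146 to 0.199 CPM in these libraries, of the reads that were assigned to genes, for counting error only. That limit does not cover reads left unassigned because they fall in more than 1 gene. All exonic bases of MMP1, MMP10, MMP24, TIMP1 and TIMP3 lie inside the span of another annotated gene in GENCODE v29. For MMP1 and MMP10 this is the pseudogene WTAPP1, for MMP24 it is MMP24OS and a pair of genes with clone names, for TIMP1 it is SYN1 and for TIMP3 it is SYN3, the TIMP genes sitting in introns of the synapsin genes. The other 5 members had 0% of their exonic bases inside other genes, apart from the 14.1% of TIMP2.

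Across the genome the same division was seen. Of 672 protein-coding genes with a mean of at least 1 CPM in VOS1 and all their exonic bases inside other genes, 612 (91.1%) were at 0 in all 12 libraries of IBD, VOS2 and NOS1. The share was 3.14% of 5918 genes with some exonic bases inside other genes and 0.983% of 5392 genes with none. Of the 30 annotated genes of the family and its other inhibitors, 8 lie wholly inside other genes and 7 of these were at 0, the exception being MMP28 (0 to 9 counts), while 0 of the other 22 were at 0 in all 12. A value of 0 for these members is therefore not given here as absence of transcript.

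**Figure D4:**
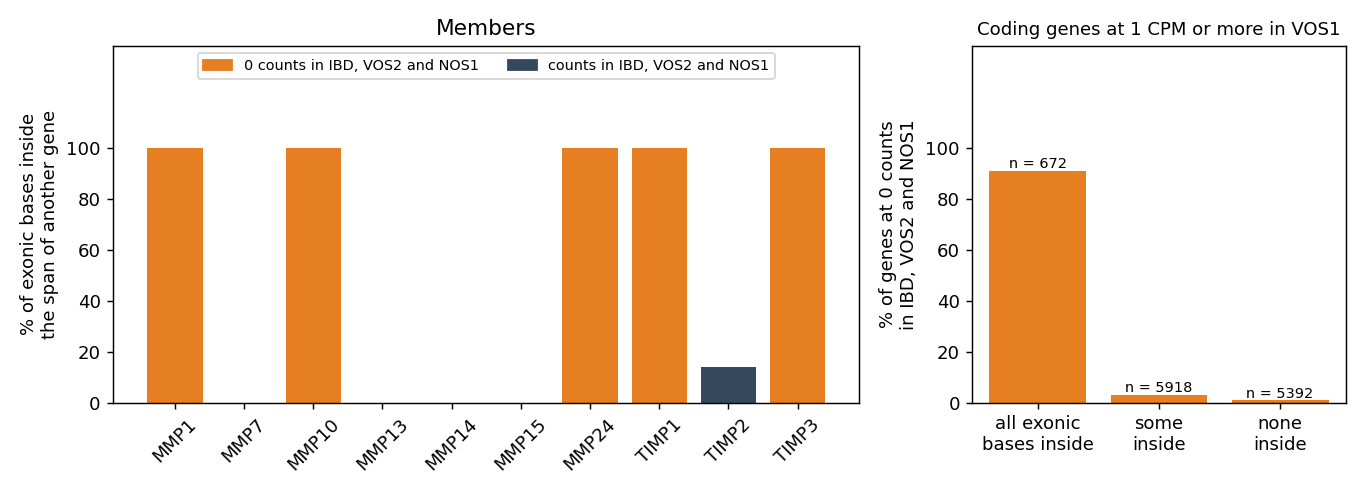
Left, the percentage of each member's exonic bases that lie inside the span of another gene, coloured by whether the member had 0 counts in IBD, VOS2 and NOS1. Right, the percentage of protein-coding genes at 0 counts in those tables among genes with at least 1 CPM in VOS1, by how much of the gene lies inside others (n above each bar). The 5 members at 0 all stand at 100%, and TIMP2 at 14.1%.

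The length behind each value, taken as the ratio of deposited counts to deposited FPKM (counts scaled by feature length and library total), showed how the tables differ. It was 10243 bp for MMP7, 12482 bp for MMP14, 21148 bp for MMP15 and 72411 bp for TIMP2 in IBD, VOS2 and NOS1, which is close to the whole gene with its introns. In VOS1 it was 2320 bp for MMP7, 4623 bp for MMP14, 4231 bp for MMP15 and 6209 bp for TIMP2, near the length of the exons. Over all genes with a length in the 4 tables, 99.4% had lengths within 1% of each other among IBD, VOS2 and NOS1, and 90.6% had a shorter one in VOS1. A level in VOS1 set against another table therefore differs in counting as well as in treatment, and no test was made between them.

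Within VOS1 the full set of members could be ordered by level per length. The mean FPKM was 47.7 for TIMP1, 39.5 for TIMP3, 34.6 for MMP14, 24.9 for TIMP2 and 18.2 for MMP15. It was 3.18 for MMP1, 2.36 for MMP24, 0.265 for MMP10, 0.160 for MMP13 and 0.0561 for MMP7. The ranges over the 4 libraries overlapped between TIMP1 and TIMP3, between TIMP3 and MMP14 and between MMP1 and MMP24, and likewise between MMP10 and MMP13 and between MMP13 and MMP7. Compared within each library, MMP13 was above MMP7 in every VOS1 library, although both had few counts. In each of the other overlapping pairs the order changed between libraries. These differences between genes were not tested. MMP14 (28.9 to 37.9 FPKM) and TIMP2 (21.7 to 28.6 FPKM) did not overlap, nor did TIMP2 and MMP15 (17.4 to 18.9 FPKM). In the per-length order of IBD, VOS2 and NOS1, which rests on whole gene lengths, MMP14 was again above MMP15, with means of 8.40 and 4.24 FPKM in IBD. TIMP2 was below MMP15 there, at 1.56 FPKM in IBD, whereas in VOS1 it was above MMP15.

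TIMP1, a broad inhibitor that responds to cytokines, had 63.0, 55.7, 64.8 and 92.1 CPM in the VOS1 libraries, replicate 4 being the highest. TIMP3, which is bound to the matrix and also inhibits ADAM17, had 218, 129, 188 and 192 CPM, with replicate 2 lowest. TIMP2 had 177, 146, 135 and 159 CPM there.

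MMP1 had 163, 347, 236 and 97 counts in VOS1, or 8.71 ± 4.29 CPM (SD, n = 4), and was lowest in replicate 4. MMP24 had 139, 224, 149 and 553 counts, or 10.3 ± 6.30 CPM, and was highest in replicate 4. MMP10 had 9, 28, 7 and 2 counts. MMP7, the member that was high in IBD, had 3, 2, 6 and 1 counts in VOS1, and MMP13 had 8, 15, 13 and 8. In CPM, VOS1 replicate 4 was the highest library of its table for MMP24 and TIMP1 and the lowest for MMP1, MMP7, MMP10, MMP13 and MMP15. Over all genes it also stood apart from the other 3 VOS1 libraries, with a chi-square per degree of freedom of 70.6 to 90.8 against them, while those 3 differed from each other by 13.8 to 19.1. Without it, MMP1 (2.66 to 4.86 FPKM) and MMP24 (1.418 to 1.963 FPKM) did not overlap, nor did MMP13 (0.126 to 0.210 FPKM) and MMP7 (0.0331 to 0.118 FPKM), while the other overlaps between neighbours were still present.

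**Figure D5:**
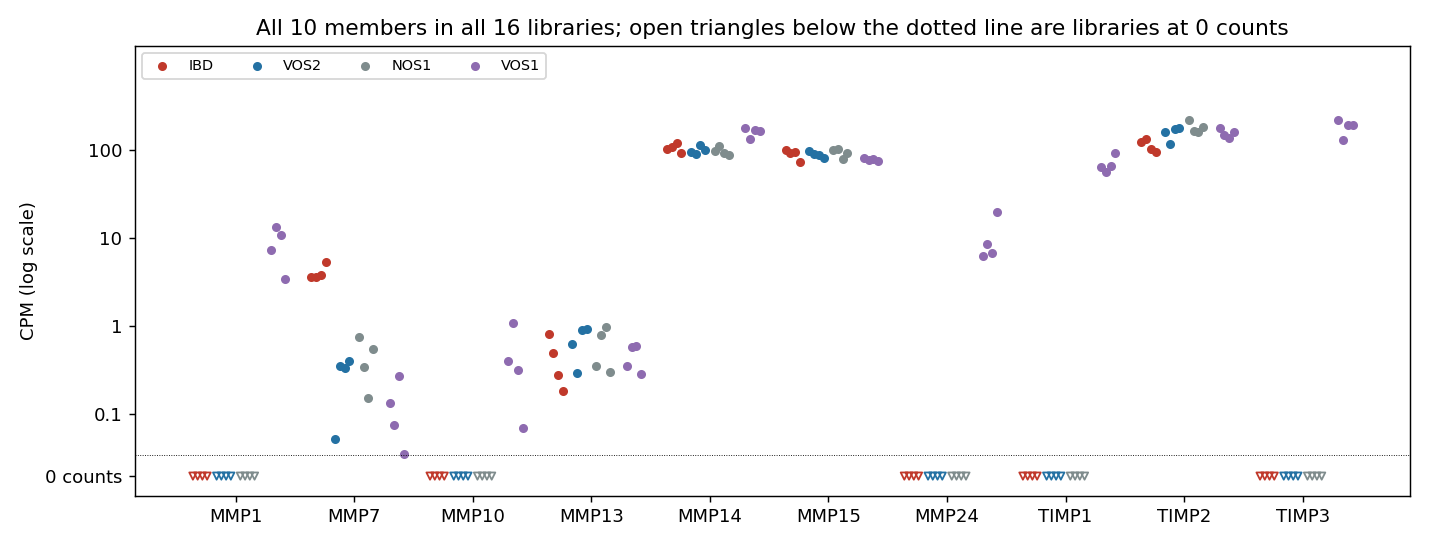
CPM of all 10 members in all 16 libraries on a log scale, with IBD, VOS2, NOS1 and VOS1 from left to right for each gene. Open triangles under the dotted line are libraries at 0 counts. MMP1, MMP10, MMP24, TIMP1 and TIMP3 have counts in VOS1 alone, and the features behind the VOS1 values were shorter.

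Few other genes of the proteolytic system passed the test. Of 16 other matrix metalloproteinases, 5 were tested (MMP2, MMP11, MMP17, MMP19 and MMP20), and none passed in any comparison. The gelatinase MMP9 (0 to 3 counts), the stromelysin MMP3 (0 to 5) and the macrophage elastase MMP12 (0 to 7) had too few counts for a test. Per length, MMP11 (stromelysin-3) was the highest of the 16 in these tables, with a mean level of 0.248 FPKM in IBD, 0.279 FPKM in VOS2 and 0.248 FPKM in NOS1. The membrane-anchored MMP17 had 6 to 22 counts in the IBD libraries, 10 to 15 in the VOS2 libraries, and 143, 15, 13 and 59 in the NOS1 libraries, so NOS1 replicates 1 and 4 alone were high, and it did not pass against NOS1 (edgeR adjusted p 0.0599). MMP2 had 4 to 14 counts in IBD, 7 to 21 in VOS2, and 135, 10, 6 and 60 in NOS1. Its edgeR adjusted p in IBD against NOS1 was 0.0741. MMP20 ran the other way, with 13 to 34 counts in IBD, 6 to 21 in VOS2 and 2 to 11 in NOS1. Its edgeR adjusted p in IBD against NOS1 was 0.0842. Of 4 other inhibitors, the membrane-anchored RECK and the plasma inhibitor A2M were tested and neither passed.

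Of 10 genes of plasminogen activation, a cascade that can activate proMMPs, 7 were tested and none passed in edgeR. The urokinase receptor PLAUR had 26.7 ± 5.92 CPM in IBD against 16.4 ± 5.95 CPM in VOS2, with an edgeR adjusted p of 0.153. All 7 genes in a list of proprotein convertases and other genes linked to MMPs (FURIN, PCSK5, PCSK6, PCSK7, BSG, ST14 and HPN) were tested and none passed. Of 17 ADAM and ADAMTS proteases, 11 were tested, none passed in IBD against VOS2, and ADAMTS9, which cuts proteoglycans, rose 2.51-fold in IBD against NOS1 (edgeR adjusted p 0.0115).

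Among 29 genes of the matrix and basement membrane, the proteins on which these enzymes act, 24 were tested and none fell in IBD against VOS2 or against NOS1. The hemidesmosomal collagen COL17A1 was among those that rose in IBD against VOS2. It had a mean of 30.8 ± 11.0 CPM in IBD libraries, against 17.0 ± 1.32 CPM in VOS2 libraries (SD, n = 4 each), and rose 1.84-fold with an edgeR adjusted p of 0.0180. Against NOS1 its edgeR adjusted p was 0.0539, and it did not pass.

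Of 16 ETS and RUNX transcription factors, families that act with AP-1 at several metalloproteinase promoters, 12 were tested. In IBD against VOS2 the epithelial ETS factors EHF and ELF3 rose 1.39-fold and 1.54-fold (edgeR adjusted p 0.0142 and 0.0245). RUNX1 fell 1.50-fold (edgeR adjusted p 0.00289). Against NOS1, ELF3 and EHF rose and the ETS factor ETV5 fell, by 1.74-fold, 1.33-fold and 1.41-fold. In VOS2 against NOS1, none of these lists had a gene past the edgeR threshold.

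Markers of other cells were low. The 7 leukocyte markers summed to 12.8 to 17.1 CPM in IBD, 14.6 to 18.2 CPM in VOS2 and 10.1 to 14.5 CPM in NOS1, and 3 were tested. CD14 fell 1.68-fold in IBD against VOS2 (edgeR adjusted p 0.0169) and ITGAM rose 1.48-fold in IBD against NOS1 (edgeR adjusted p 0.0493). The 4 endothelial markers summed to 14.1 to 24.6 CPM in IBD, 18.0 to 18.7 CPM in VOS2 and 14.7 to 20.3 CPM in NOS1, with KDR at 0 counts in every library and none past the test.

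The genes whose log2 CPM ran most like that of MMP7 over the 12 libraries were LCN2, an iron-scavenging antimicrobial protein (Pearson r 0.963), complement C3 (0.960), the transcription factor CEBPD (0.960) and the NF-κB inhibitors NFKBIA (0.954) and NFKBIE (0.952). Because they were picked for running like MMP7, which separates IBD from the other tables, their difference between tables follows from the choice and is given as a description. The log2 fold changes of IBD against VOS2 were 5.40 for LCN2, 2.26 for C3, 1.11 for CEBPD, 1.50 for NFKBIA and 1.17 for NFKBIE. Those most like TIMP2 were ZBTB47 (0.970), SLC48A1 (0.962), HOXC13 (0.957), EMD (0.953) and CAVIN1 (0.952). The 12 points share the same 3 tables, and these correlations are a description without a test.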

How the data were processed

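Messenger RNA of 16 Caco-2 libraries was captured on polyT, fragmented and amplified by PCR, per the labels' protocols, with no step that marks the strand. Per the submitters' processing notes, reads were handled with featureCounts 2.0.6, STAR 2.7.11a, DESeq2 1.42.0, FastQC 0.12.1 and fastp 0.23.4 and the build hg38. The sources used here give neither their settings nor the annotation. The authors deposited raw counts, whole reads per gene, and FPKM values, scaled by feature length and library size. Each of the 4 tables had 61228 gene rows and 4 libraries, and no 2 libraries of the same table agreed within sampling noise.

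CPM was computed as counts divided by the library total. Counts of IBD, VOS2 and NOS1 (12 libraries) were fitted with edgeR 4.0.16 in R 4.3.3 by quasi-likelihood, with TMM scaling, the default filter by table (10 counts, or 0.559 CPM, in 4 libraries) and Benjamini-Hochberg adjustment over 14773 genes at 0.05. Standard errors were taken from the F statistic. VOS1 was not tested, and genes wholly inside other genes were not interpreted. The procedure was tried on simulated counts given the same spread for every gene, which does not measure its error rate in these libraries. Overlaps were counted in GENCODE v29, and promoters came from RefSeq.

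The members, lists and alternatives were chosen with earlier results of these data known. Named genes were all members, up to 4 genes of each list past the threshold in IBD against VOS2, and the 5 genes most like each called member among tested genes whose log2 CPM averaged 2 or more. A gene that this rule names is not reported here. Other genes named in the report were chosen after their values were seen. The alternatives were other scalings and filters, DESeq2 1.42.0, limma 3.58.1 on log2 FPKM, other sets of libraries and each replicate left out.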

Additional observations from a re-analysis of the deposited data

Results flagged for a closer look

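Of 25 groups of 4 libraries examined for a library far from the others, 2 were picked out, and chance alone picks about 1 in 20. For MMP7, IBD replicate 4 had 5.27 CPM against 3.57 to 3.82 CPM in the other IBD libraries. VOS2 replicate 1 had 0.0530 CPM, a single count, against 0.340 to 0.398 CPM in the other VOS2 libraries. MMP7 passed the edgeR test in IBD against VOS2 without either library, and in IBD against NOS1 without IBD replicate 4. IBD against NOS1 was not fitted without VOS2 replicate 1.

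Signal outside the compared tables was found for the 5 members at 0 counts in IBD, VOS2 and NOS1. Their mean level in VOS1 was 8.71 CPM for MMP1, 0.467 CPM for MMP10, 10.3 CPM for MMP24, 68.9 CPM for TIMP1 and 182 CPM for TIMP3. VOS1 was counted over shorter features, and treatment and counting cannot be told apart in these values.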

How the results depend on the processing

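MMP7 was past the threshold in both IBD comparisons under every alternative run, 19 against VOS2 (adjusted p 8.56e-14 to 0.00346) and 20 against NOS1 (8.83e-12 to 0.00972), with a log2 fold change of 0.44 to 4.05 and of 0.42 to 4.02, the lowest on log2(FPKM + 1). TIMP2 was negative in all of them and decided each change in the count of members. Against VOS2, where 1 member passed, 2 passed with no filter (TIMP2 adjusted p 0.0427) and with DESeq2 (0.0364), and 1 to 2 with each replicate left out. Against NOS1, where 2 passed, 1 passed with limma on log2(FPKM + 1) (TIMP2 adjusted p 0.0518), without IBD replicates 3 and 4 and without NOS1 replicates 1 and 4, and 1 to 2 with each replicate left out. VOS2 against NOS1 gave 0 members in all 19, and the log2 fold change of MMP7 there was 0.16 without NOS1 replicates 1 and 4. MMP7 was not tested when VOS2 and NOS1 were fitted alone. MMP13 was not tested in the fit of IBD and NOS1 alone or with a minimum of 1 CPM, and DESeq2 gave it no adjusted p in IBD against VOS2. A fit of all 16 libraries called 1 and 2 members. The cause of these changes was not tested.

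Replicate numbers did not pair the libraries (correlations of same-numbered deviations −0.289 to 0.244). A replicate block left 1, 2 and 0 members called and 418 genes in IBD against VOS2.

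The number of all genes called moved more. IBD against VOS2 (674 genes) gave 1072 with DESeq2, 316 to 409 without IBD replicate 3 or 4 or VOS2 replicate 1, 3 or 4, and 222 without IBD replicates 3 and 4 together. IBD against NOS1 (858 genes) gave 233 for the pair alone, 1294 with no filter, 1335 with DESeq2, 349 and 397 with limma on log2(FPKM + 1) and log2(FPKM + 0.1), 547, 351 and 305 without IBD replicate 1, 3 or 4, 1351 and 333 without NOS1 replicate 3 or 4, 155 without both IBD replicates and 362 without both NOS1 replicates. VOS2 against NOS1 (0 genes) gave 255 with no filter, 6 with DESeq2 and 376 without NOS1 replicate 3. Counts of 1 to 19 limit MMP13 in every table and MMP7 in VOS2 and NOS1.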
